A study of Homo sapiens with 15 samples.

Results

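The clustered protocadherin locus on the long arm of chromosome 5 was taken as the span from 140160000 to 140895000 in hg19, a stretch of 735 kb. Its members were the peaks of 4 deposited peak lists that shared at least 1 bp with this span, so they were chosen by position and not by any measured value. There were 188 such peaks among the 647617 of the 4 lists. They were 74 peaks of each H3K4ox list, 8 of the H2A.Z list and 32 of the RUVBL2 list. All 4 libraries were made by chromatin immunoprecipitation with sequencing (ChIP-seq) from MDA-MB-231, an established human cell line grown from a triple-negative breast tumour, and the labels name no knockdown for them. H3K4ox had 2 libraries, made with a handmade antibody, and H2A.Z and RUVBL2 had 1 library each, made with purchased antibodies. The other 11 samples of the series, namely the input, the RNA-seq samples and the ATAC-seq samples, were not analysed here. The lists hold peaks and no reads, so the depth of sequencing is unknown. The labels do not say whether the 2 H3K4ox libraries are separate cultures, and the spread between them may be technical. Peak lists hold no expression values, and marker genes of the line were not examined.

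Clustered protocadherins are cell-surface proteins of the cadherin superfamily, best known in neurons, where their combinations let a cell recognise its own branches. The genes stand in tandem as an alpha, a beta and a gamma cluster. In the alpha and gamma clusters each variable exon has its own promoter and is spliced to constant exons shared by the whole cluster, while beta genes have a single coding exon and no constant exons. Choice among these promoters involves DNA methylation, the insulator protein CTCF and cohesin, and the clusters are known for dense DNA methylation in several kinds of tumour. H3K4ox is histone H3 oxidised at lysine 4 by LOXL2, H2A.Z is a histone variant common at promoters, and RUVBL2 is an ATPase of the complexes that exchange H2A.Z.

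In the RefSeq gene order the 53 protocadherin genes fall into 15 alpha, 16 beta and 22 gamma genes. ZMAT2 and the histidyl-tRNA synthetase genes HARS2 and HARS1 come before PCDHA1. SLC25A2, a mitochondrial carrier, and TAF7, a subunit of the general transcription factor TFIID, stand between PCDHB15 and PCDHGA1. DIAPH1, a formin that organises actin, and the histone deacetylase gene HDAC3 follow PCDHGC5. That table has the build GRCh38.p14 and the peaks are in hg19, so only the order of the genes was taken from it and no peak was assigned to a gene.

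Promoter windows of RefSeq (GRCh38.p14, from 250 bases before to 50 after each annotated start) were found for 47 of the 53 genes. They are shown as examples of short sequence that repeats along the clusters. In each cluster the word of 10 bases held by the most genes, on either strand, was picked after the sequences had been seen. Capitals mark that word, with 10 bases on each side, 5′ to 3′ on the plus strand of chromosome 5, the strand of the genes.
PCDHA1: attggccacaTGATGTCGCTgtacaccaca
PCDHA2: tttagccacaTGATGTCGCTgtccaccata
PCDHA7: gatggccacaTGATGTCGCTctttaccgca
PCDHB2: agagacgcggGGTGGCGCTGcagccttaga
PCDHB3: gcgaacgcatGGTGGCGCTGttgactaaga
PCDHB15: gacaacgcatGGTGGCGCTGcaggctaagg
PCDHGA1: aggactgtggGCGCCGCTGTtcactaatct
PCDHGA9: aggactctgaGCGCCGCTGTtgatcaactc
PCDHGB4: ctgactctggGCGCCGCTGTtggccaaagt
PCDHGB5: ctgactctggGCGCCGCTGTtggccaaagt

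The alpha word TGATGTCGCT was in 8 of 13 alpha genes and in 0.034% of all 35116 promoter windows. The beta word GGTGGCGCTG was in 12 of 14 beta genes and in 0.28% of all windows, and the gamma word GCGCCGCTGT in 9 of 20 gamma genes and in 0.13% of all windows. None of the 3 words was found in a promoter window of the other 2 clusters. The longest string they have in common is CGCT, which 46 of the 47 genes held, but so did 70.0% of all windows. Where words were held by equally many genes, the first in alphabetical order over both strands was taken. In alpha the bases CA stand before the word in all 8 genes, so words that begin there were held by as many. The string in common depends on that choice. PCDHGB4 and PCDHGB5 had the same 30 bases around their word. All 4 peak lists carry the term multilocus in their headers, and no label explains it. How reads from repeated sequence were counted, and whether this changed the peaks, was not tested.

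The locus carried fewer peaks than its surroundings and about as many as the genome as a whole. H3K4ox had 101 peaks per Mb in both lists (74 peaks each, SD 0, n = 2), RUVBL2 had 43.5 per Mb (95% exact Poisson interval 29.8 to 61.5) and H2A.Z had 10.9 per Mb (4.70 to 21.4). Over chromosomes 1 to 22 and X the densities were 84.5 ± 1.31 (SD, n = 2), 37.0 and 13.1 peaks per Mb. The locus was thus at 1.19 ± 0.02 times the genome density for H3K4ox, 1.18 times for RUVBL2 and 0.83 times for H2A.Z. Over both flanks of 500 kb, the densities were 182 ± 11.3 for H3K4ox (SD, n = 2), 78.0 for RUVBL2 (61.7 to 97.3) and 23.0 for H2A.Z (14.6 to 34.5). The Poisson intervals reflect the number of peaks alone and take each peak as an independent count.

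Relative to the flanks, the H3K4ox density of the locus was 0.55-fold (log2 ratio -0.85, with -0.92 in replicate 1 and -0.79 in replicate 2). The RUVBL2 density was 0.56-fold (log2 ratio -0.84, 95% exact interval -1.48 to -0.23), and that of H2A.Z 0.47-fold (log2 ratio -1.08, interval -2.45 to 0.13, which includes no difference). Places within a library have no samples to permute. With 2 lists set against 1, the smallest exact permutation p (two-sided) would be 0.33, so these are descriptions without a test. When the genome was tiled with 3883 windows of 735 kb that held a peak of any list, 69.5% held fewer H3K4ox peaks of replicate 1 than the locus, and 70.8% fewer of replicate 2. For RUVBL2 72.6% of windows and for H2A.Z 51.4% of windows held fewer. The window medians were 48 and 47 H3K4ox peaks, 22 RUVBL2 peaks and 7 H2A.Z peaks.

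**Figure D1:**
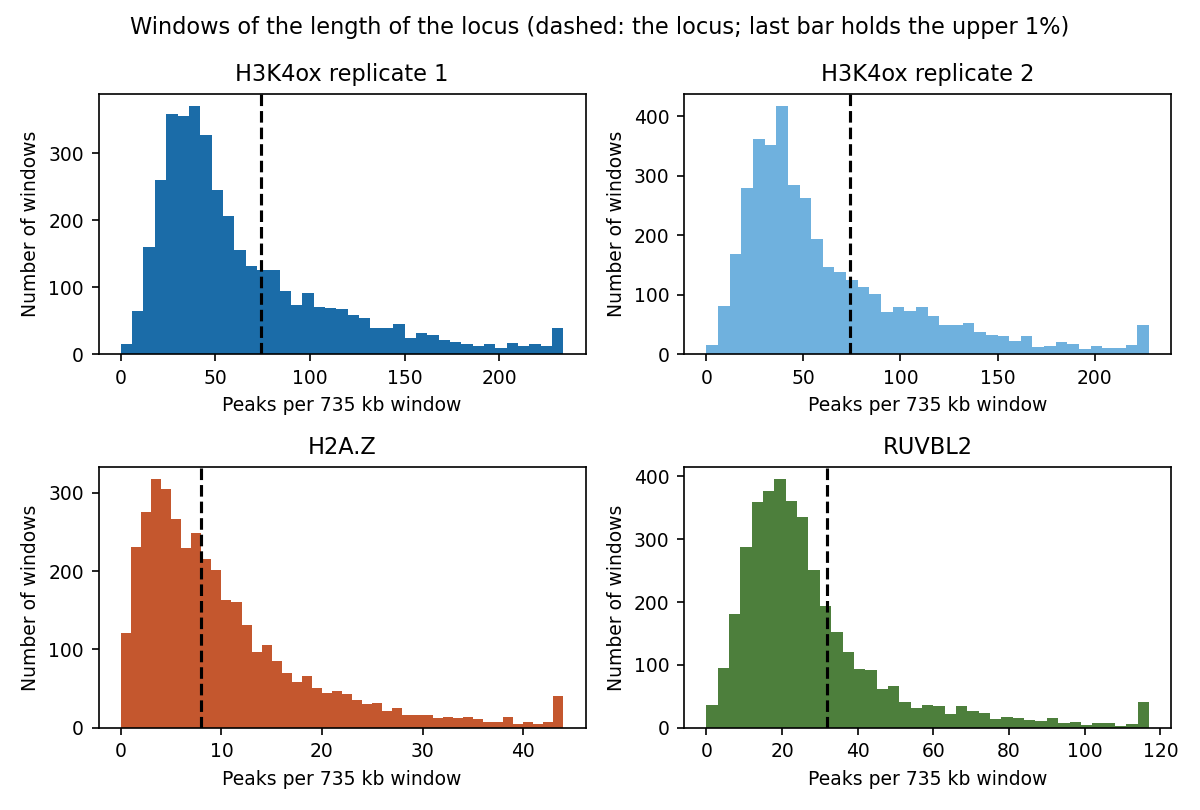
Number of 735 kb windows (y axis) by their peak count (x axis) for each of the 4 lists, with the locus as a dashed line and the upper 1% of windows gathered in the last bar. The locus lies above the median but below the upper quartile of the windows for H3K4ox (74 peaks in each list, quartiles 31 to 84 and 31 to 82) and RUVBL2 (32 peaks, quartiles 15 to 33), and near the median for H2A.Z (8 peaks).

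The 2 flanks were unlike each other, mostly for H2A.Z. The 5′ flank held 22 H2A.Z peaks and the 3′ flank 1, against 8 in the longer locus. For RUVBL2 the flanks held 53 and 25 peaks. H3K4ox replicate 1 had 112 peaks in the 5′ flank and 78 in the 3′ flank, and replicate 2 had 100 and 74. Against the 5′ flank alone, the locus was lower for each antibody, with log2 ratios of -1.07 for H3K4ox, -1.28 for RUVBL2 and -2.02 for H2A.Z. Against the 3′ flank alone the H3K4ox ratio was -0.59 and the RUVBL2 ratio -0.20, and the H2A.Z ratio turned to 2.44, which rests on that 1 peak.

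The H3K4ox density fell at the 5′ bound of the locus. In the last 50 kb before it, the lists of H3K4ox replicates 1 and 2 held 12 and 10 peaks, and the first 50 kb inside held 1 and 2. RUVBL2 went from 4 peaks to 1. At the 3′ bound, the bin of 50 kb that crosses it held 6 and 8 H3K4ox peaks and the next held 8 and 9. RUVBL2 had 0 peaks in the crossing bin and 3 in the next, a difference as large as that at the 5′ bound, and a stretch of 66.9 kb without RUVBL2 peaks (140852799 to 140919687) ran across the 3′ bound. The nearest H3K4ox peaks outside the 5′ bound lay 1.17 kb (score 58.1) and 1.09 kb (score 102) away, and the first inside lay 30.8 kb (score 77.6) and 1.68 kb (score 52.9) within. At the 3′ bound the last peaks inside had scores of 52.4 and 51.8 and the first outside 109 and 56.0.

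**Figure D2:**
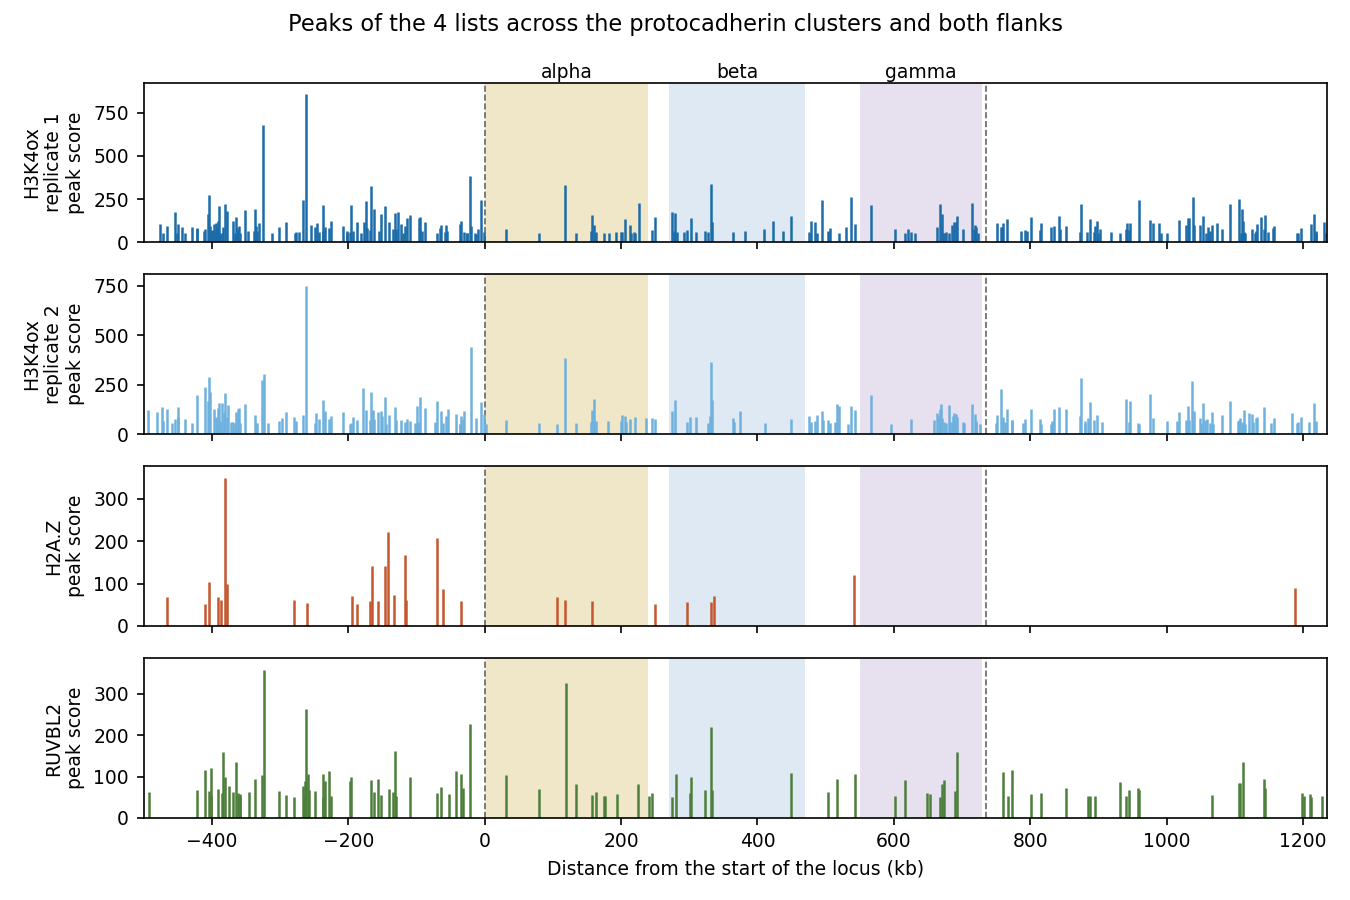
Each vertical line is 1 peak, placed by its centre at its distance from the start of the locus in kb (x axis), with the height showing the score of the authors' peak caller (y axis, a scale of its own for each list); shading marks the alpha, beta and gamma segments and dashed lines the bounds of the locus. The 3 libraries with many peaks thin out inside the first 100 kb of the locus, and H2A.Z has no peak in the gamma segment.

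The 3 clusters were then compared with each other, as alpha (140160000 to 140400000), beta (140430000 to 140630000) and gamma (140710000 to 140890000). The gamma segment was the densest for H3K4ox and had no H2A.Z peak. H3K4ox replicate 1 had 19 peaks in alpha, 18 in beta and 23 in gamma, and replicate 2 had 18, 14 and 26, in segments of 240, 200 and 180 kb. The means were 77.1 ± 2.95 peaks per Mb in alpha, 80 ± 14.1 in beta and 136 ± 11.8 in gamma (SD, n = 2 each). In both lists gamma was above alpha and beta, while alpha and beta did not differ beyond the spread of the lists. The H3K4ox density of alpha was 0.57-fold that of gamma (log2 ratio -0.82, with -0.69 and -0.95 in the 2 lists), and that of beta 0.58-fold (log2 ratio -0.78, with -0.51 and -1.05). The Poisson intervals of single lists overlapped, at 81.0 to 192 per Mb for gamma and 47.7 to 124 for alpha in replicate 1.

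RUVBL2 peaks did not follow that order beyond counting error. Alpha held 10, beta 8 and gamma 9 RUVBL2 peaks, which is 41.7, 40 and 50 per Mb. Their log2 ratios to gamma were -0.26 for alpha (95% exact interval -1.72 to 1.21) and -0.32 for beta (-1.90 to 1.22). For every 100 H3K4ox peaks there were 54.1 ± 2.07 RUVBL2 peaks in alpha, 50.8 ± 8.98 in beta and 36.9 ± 3.19 in gamma (SD, n = 2 lists of H3K4ox), against 43.8 ± 0.68 over the genome. Each SD comes from the H3K4ox counts alone and leaves out the counting error of RUVBL2, which had 1 list. By its exact Poisson interval the RUVBL2 density of gamma was 22.9 to 94.9 per Mb, which includes the genome's 37.0. H2A.Z peaks numbered 3 in alpha, 3 in beta and 0 in gamma. The 0 in gamma allows a density of up to 20.5 per Mb by its Poisson interval, above the genome's 13.1, so a lower H2A.Z density in gamma was not detectable from this count.

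**Figure D3:**
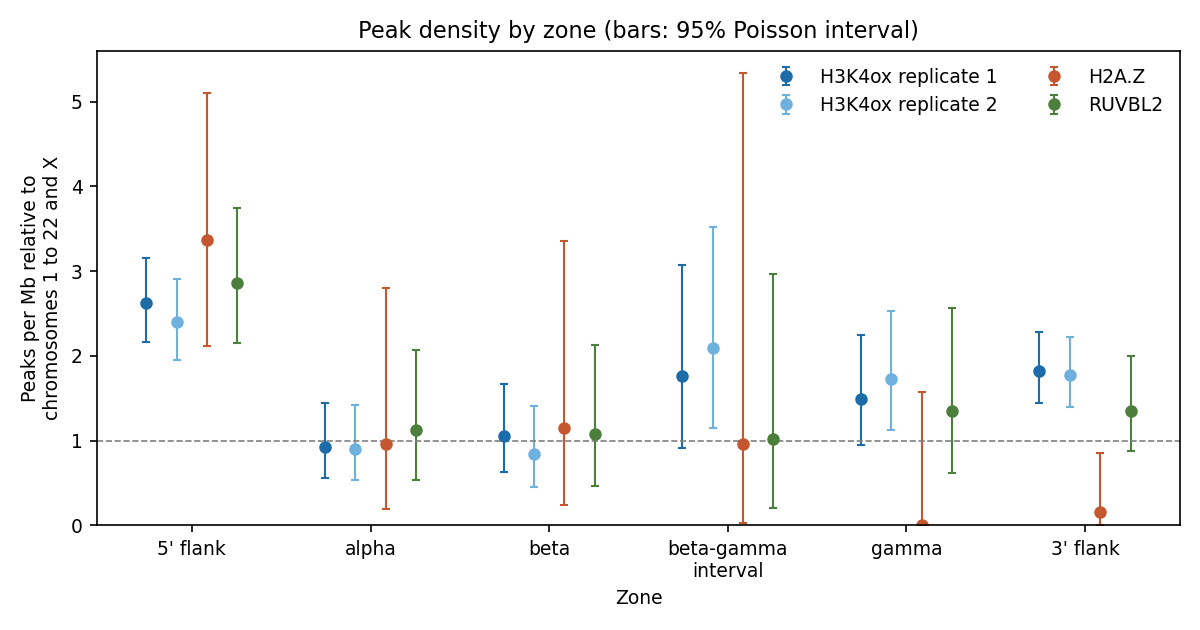
Peaks per Mb in each zone divided by the density over chromosomes 1 to 22 and X (y axis; 1 is the genome level), for the 4 lists, with 95% exact Poisson intervals as bars. The 5′ flank lies highest for each list, alpha and beta lie near 1, and gamma lies above 1 for both H3K4ox lists and at 0 for H2A.Z.

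Peaks were unevenly placed inside each segment. In alpha, the 5′ 50% (120 kb) held 3 and 5 H3K4ox peaks of replicates 1 and 2, and the 3′ 50% held 16 and 13. Gamma had the same tilt, with 6 and 3 peaks in its 5′ 50% (90 kb) and 17 and 23 in its 3′ 50%. Beta was tilted the other way, with 13 and 11 peaks in its 5′ 50% (100 kb) and 5 and 3 in its 3′ 50%. RUVBL2 had 3 and 7 peaks in the 5′ and 3′ parts of alpha, 7 and 1 in those of beta and 2 and 7 in those of gamma. H2A.Z had 2 and 1 in alpha, the reverse of the H3K4ox order, 3 and 0 in beta and none in gamma. The RUVBL2 and H2A.Z counts come from 1 library each, and no interval was computed for these splits. In gene order the 3′ ends of the alpha and gamma clusters hold PCDHAC1 and PCDHAC2, and PCDHGC3 to PCDHGC5, the C-type genes nearest to the constant exons. No peak was placed on them here.

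The 80 kb between the beta and gamma segments, where SLC25A2 and TAF7 stand in the gene order, was the densest zone of the locus for H3K4ox. It held 12 and 14 peaks, or 163 ± 17.7 per Mb (SD, n = 2), which was 1.93 ± 0.24 times the genome density. This was above gamma in both lists (150 and 175 per Mb against 128 and 144), and the Poisson intervals overlapped. Its 3 RUVBL2 peaks per 80 kb were 1.01 times the genome density. The 30 kb between alpha and beta held 2 H3K4ox peaks of each list, 2 RUVBL2 peaks and 1 H2A.Z peak.

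Of the 8 H2A.Z peaks, 3 scored above the median of their list and 1 stood well above the others. Scores are those of the authors' peak caller, and a score percentile is the share of peaks of the same list with a lower score. The best H2A.Z peak of the locus lay between the beta and gamma segments, at 140700399 to 140701371 (score 120.5, percentile 85.8). It met no peak of H3K4ox or RUVBL2, although the nearest place with both began about 1 kb beyond it, at 140702360. The other 7 had scores from 51.0 to 71.6. In alpha they lay at 140265848 to 140266913 (score 68.9, percentile 53.6), 140277221 to 140277918 (61.2) and 140316410 to 140317189 (58.95). In beta they lay at 140456756 to 140457385 (57.3), 140491241 to 140491895 (57.1) and 140496653 to 140497377 (71.6, percentile 57.4), and the last lay between alpha and beta at 140408829 to 140409449 (51.0). None of the 8 was in the upper 10% of the H2A.Z list by score, where 10.0% of the list lies. In the 5′ flank 4 of 22 H2A.Z peaks were there, with scores up to 349.

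From the end of the best H2A.Z peak, no H2A.Z peak followed for 646 kb (140701372 to 141347338), across the gamma cluster and most of the 3′ flank. Of the 38505 H2A.Z-free stretches on chromosomes 1 to 22 and X, 399 (1.04%) were at least as long. This stretch was rich in H3K4ox for its kind. It held 93 and 95 H3K4ox peaks of replicates 1 and 2 (144 and 147 per Mb) and 30 RUVBL2 peaks (46.4 per Mb). The medians of the 399 stretches were 45.5 and 44.7 H3K4ox peaks and 16.7 RUVBL2 peaks per Mb, and 98.5%, 99.2% and 97.5% of them had lower densities. The longest of the 399 was 21093 kb. The longest peak-free stretches of H3K4ox replicates 1 and 2 and of RUVBL2 were of like length, at 21190, 21190 and 21058 kb. Gaps of the assembly can hold no peak, so any stretches that span them lower these medians. Which of the 399 do so was not tested. Of 15789 windows of 180 kb, 27.5% had no H2A.Z peak. Among the 2669 windows with at least as many H3K4ox peaks as gamma in both lists, 6.86% had none and the median was 4. By its H3K4ox counts gamma lies at the lower edge of that set, and these windows were chosen after the data were seen. Both shares are therefore descriptions, and whether gamma holds fewer H2A.Z peaks than windows of equal H3K4ox density was not tested. H2A.Z had 1 library, so the length of this stretch has no replicate check.

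The H3K4ox replicates matched in the locus about as often as elsewhere. In replicate 1, 52 of 74 peaks had a partner in replicate 2 (70.3%, 95% Wilson interval 59.1 to 79.5). In replicate 2, 54 of 74 had one in replicate 1 (73.0%, 61.9 to 81.8). The whole lists gave 67.8% and 70.2%. The mean was 71.6% ± 1.91 in the locus (SD, n = 2) against 69.0% ± 1.72 in the whole lists. Beta had 10 of 18 and 10 of 14 peaks matched, alpha 14 of 19 and 14 of 18, and gamma 16 of 23 and 17 of 26, with Wilson intervals that overlapped in each list. Peaks found in the other replicate had a median score of 92.0 in replicate 1 and 85.1 in replicate 2, and the others 63.0 and 59.4.

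Most RUVBL2 peaks of the locus lay on H3K4ox, at about the rate of the whole list. Of 32 RUVBL2 peaks, 21 (65.6%, 95% Wilson interval 48.3 to 79.6) overlapped a region built from peaks of both H3K4ox replicates, called a shared region here, against 64.4% of the whole list. With a peak of either replicate counted, it was 27 of 32 (84.4%, 68.2 to 93.1) against 81.9%. The share in shared regions was 6 of 10 in alpha, 7 of 8 in beta and 5 of 9 in gamma, with overlapping intervals (31.3 to 83.2%, 52.9 to 97.8% and 26.7 to 81.1%). In the 5′ flank it was 40 of 53 (75.5%) and in the 3′ flank 14 of 25 (56.0%). The 5 RUVBL2 peaks outside H3K4ox had scores from 51.9 to 60.1, and the 27 on H3K4ox had a median of 81.7 and reached 326.

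Seen from H3K4ox, 25 of 74 peaks of replicate 1 (33.8%) and 20 of 74 of replicate 2 (27.0%) overlapped RUVBL2, against 30.7% and 31.3% of the whole lists. In alpha this was 37.7% ± 6.20, in beta 40.9% ± 2.81 and in gamma 22.9% ± 10.6 (SD, n = 2), and the values of gamma in the 2 lists were 30.4% and 15.4%. H3K4ox peaks on RUVBL2 had higher scores than the others, with medians of 115 against 65.7 in replicate 1 and 97.6 against 72.5 in replicate 2. The whole lists had 141 against 73.4 and 137 against 72.4.

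H2A.Z met the other antibodies rarely in absolute number. Of its 8 peaks, 4 lay in H3K4ox shared regions (50%, 95% Wilson interval 21.5 to 78.5), against 45.2% of the whole list. A peak of either H3K4ox list was met by 5 of the 8, against 64.9% of the whole list. RUVBL2 was met by 3 (37.5%, 13.7 to 69.4), against 33.4%, and these were 3 of the 32 RUVBL2 peaks (9.38%), against 11.8% of the RUVBL2 list. In the 5′ flank 17 of 22 lay in shared regions (77.3%, 56.6 to 89.9) and 9 of 22 met RUVBL2. Of the H3K4ox peaks, 4 of 74 in each list (5.41%) overlapped H2A.Z, against 8.47% and 8.46% of the whole lists. When each peak was cut to 200 bp at its centre, 0% of the 8 lay in shared regions and 12.5% met RUVBL2. With only the upper 50% of each list by score kept, 3 H2A.Z peaks remained and none of them met either. Shares of the whole list were not computed at these stricter settings. At an overlap of 1 bp, the Wilson intervals of the 8 peaks included the whole-list shares.

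Merging overlapping peaks of the 4 lists gave 102 places in the locus. H3K4ox alone made up 66 of them, with 31 found in both replicates, 17 in replicate 1 and 18 in replicate 2. H3K4ox of both replicates met RUVBL2 without H2A.Z at 17 places. RUVBL2 was alone at 5 places and H2A.Z at 3. The 3 antibodies met at 3 places, 2 in alpha and 1 in beta, and the 5′ flank had 9 such places and the 3′ flank none.

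**Figure D4:**
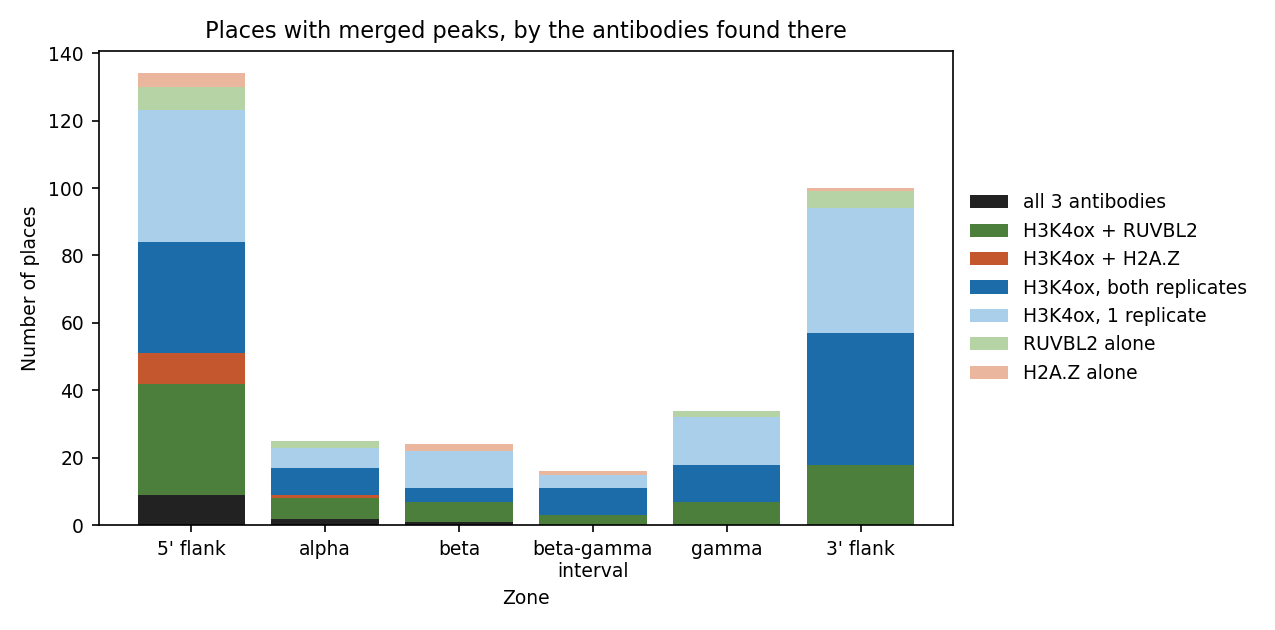
Number of merged places (y axis) in each zone by the antibodies found there, stacked and coloured; zones differ in length (500 kb for each flank, 240, 200, 80 and 180 kb for alpha, beta, the beta-gamma interval and gamma). Places with the 3 antibodies (black) number 9 in the 5′ flank, 2 in alpha, 1 in beta and 0 in the other zones.

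The strongest place of the alpha segment lay at 140275904 to 140280222. H3K4ox had a score of 332 there in replicate 1 (140275904 to 140278669) and 385 in replicate 2 (140277092 to 140278929), and RUVBL2 had 326 (140277007 to 140280222, 3216 bp wide). These were the 93.9, 96.1 and 96.3 percentiles of their lists. The H2A.Z peak inside it had a score of 61.2, at the 39.1 percentile. The H3K4ox peak of replicate 1 reached about 1 kb further to the 5′ side than the other peaks, and the RUVBL2 peak reached over 1 kb further to the 3′ side.

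The strongest place of the beta segment lay at 140491007 to 140493162. Its H3K4ox scores were 339 and 362 (94.1 and 95.5 percentiles), its RUVBL2 score was 220 (91.3 percentile) and its H2A.Z score 57.1 (27.9 percentile). These 2 places held the best H3K4ox score of each list in alpha and in beta and the best RUVBL2 scores of both segments. The other place with the 3 antibodies, at 140316410 to 140317654 in alpha, had lower scores for H3K4ox (157 and 121) and low ones for RUVBL2 (55.4) and H2A.Z (58.95).

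Among the other best-scored peaks of alpha was an H3K4ox peak of replicate 1 at 140384881 to 140386488 (score 229), which met RUVBL2 (score 82.0) but no peak of replicate 2. Replicate 2 had 176 at 140320428 to 140321320, and RUVBL2 had 105 at 140190634 to 140191723. In beta, H3K4ox had scores of 171 and 170 around 140439059 to 140440505, with RUVBL2 at 107. Replicate 1 had 173 at 140434073 to 140435234, replicate 2 had 174 at 140493230 to 140494240, and RUVBL2 had 109 at 140609049 to 140609979. The widest peaks of the locus lay in alpha for replicate 1 (2766 bp), RUVBL2 (3216 bp) and H2A.Z (1066 bp), and in gamma for replicate 2 (2084 bp, at 140828745 to 140830828, score 151).

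The best H3K4ox sites of gamma scored below the strongest places of alpha and beta and held no H2A.Z. Ranked by replicate 1, they lay at 140874889 to 140875823 (H3K4ox scores 230 and 153), 140825926 to 140828663 (220 and 125) and 140726336 to 140727339 (214 and 197). Of these, RUVBL2 met only that at 140825926, with a score of 51.5, and it overlapped the peak of replicate 1 alone. The 3 best of replicate 2 also included 140828745 to 140830828 (score 151), which met RUVBL2 at 83.1. Replicate 1 had no peak in the upper 10% of its list in gamma, and neither had replicate 2 or RUVBL2. The best RUVBL2 peak of gamma lay at 140851559 to 140852798 (score 160, percentile 85.2), on H3K4ox peaks with scores of 150 and 86.1. The next had scores of 92.3 (140775548 to 140776389) and 92.1 (140833784 to 140834812). Between beta and gamma, the places at 140696262 to 140697577 (260 and 141) and 140654047 to 140655848 (243 and 115) had H3K4ox without RUVBL2 or H2A.Z. Replicate 2 had its best score there, 154, at 140675806 to 140676946, which RUVBL2 met and replicate 1 did not.

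Somewhat fewer than 50% of the locus peaks were in the upper 50% of their list by score. They were 31 of 74 (41.9%) and 34 of 74 (45.9%) for H3K4ox replicates 1 and 2. For RUVBL2 they were 14 of 32 (43.8%) and for H2A.Z 3 of 8 (37.5%). The whole lists have 50% by definition, and no interval was computed for these shares. The median H3K4ox score was 73.6 in replicate 1 and 78.2 in replicate 2, and 75.9 ± 3.26 as a mean (SD, n = 2), against 82.7 ± 1.00 over the genome. In alpha it was 63.8 ± 6.22, in beta 77.7 ± 12.3 and in gamma 78.9 ± 0.26. Of the locus peaks, 3.38% ± 0.96 (SD, n = 2) were in the upper 10% of their H3K4ox list by score, and 2 of 32 RUVBL2 peaks (6.25%) were in that of RUVBL2, where the whole lists have 10.0%. The flanks had 3.59% ± 0.61 for H3K4ox and 3.85% for RUVBL2, so few peaks of the highest scores were found beside the locus too. Locus peaks were also narrower, with median widths of 751 ± 6.72 bp for H3K4ox against 829 ± 17.0 bp over the genome (SD, n = 2), 816.5 bp against 870 bp for RUVBL2 and 711.5 bp against 808 bp for H2A.Z. In the 5′ flank the H3K4ox median width was 960 ± 60.8 bp and the median score 91.6 ± 5.52. In the 3′ flank these were 811 ± 24.7 bp and 84.9 ± 9.47 (SD, n = 2). RUVBL2 peaks of the 3′ flank were narrower and scored lower than those of the locus. Their median width was 738 bp, and their median score was 60.3 against 67.1 in the locus.

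**Figure D5:**
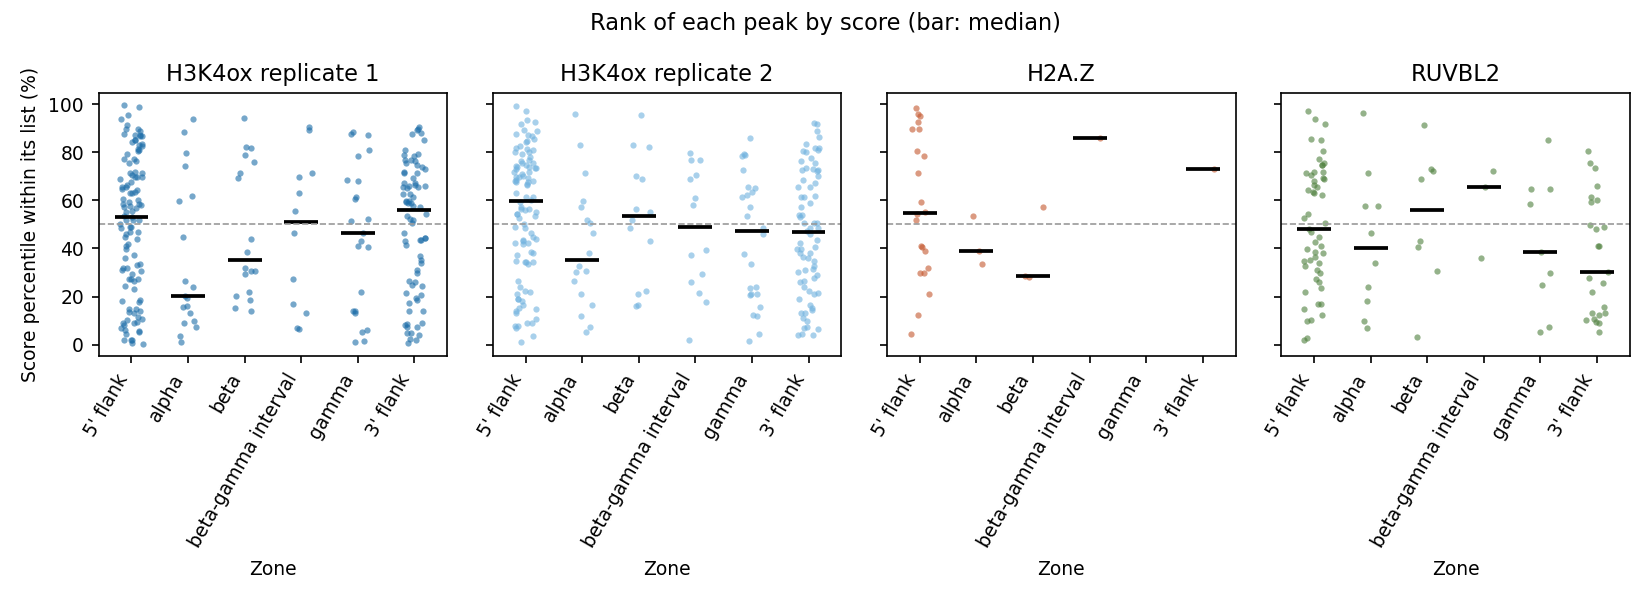
Each point is 1 peak, with its score percentile within its own list (y axis, in %) by zone (x axis) for the 4 lists, and black bars mark medians. The alpha and gamma medians lie below 50 in each list that has peaks there, and no H2A.Z point stands in gamma.

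Stretches of the locus without a peak were ranked by length in each list. The longest without H3K4ox was nearly the same in both lists, 48.2 kb in the 5′ part of alpha (140191893 to 140240057 in replicate 1 and 140191852 to 140240044 in replicate 2). Of all H3K4ox-free stretches, 3.72% and 3.95% were at least as long. This was the longest of 73 gaps between locus peaks in each list, so these shares do not make it unusual. RUVBL2 was missing from 140494261 to 140609048 in beta, a stretch of 115 kb, and 3.73% of RUVBL2-free stretches were at least as long. It was the longest of 31 gaps between RUVBL2 peaks of the locus, so that share does not make it unusual either. In that stretch the H3K4ox lists held 5 and 4 peaks, which made 8 places, and 1 of the 8 was found in both replicates. Over the whole locus 52 of 94 places with H3K4ox were found in both, but these include places with RUVBL2. Of the locus places with H3K4ox alone, 31 were found in both, 17 in replicate 1 only and 18 in replicate 2 only. The stretch was picked after the data were seen, and the difference was not tested.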

How the data were processed

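Each ChIP-seq library had its own deposited peak list, not pooled. The peak names begin with MACS, a peak caller whose version and settings no label or header states. Genome build hg19 and the tools Bowtie and TopHat come from the submitters' processing notes, without versions. The deposited score of each peak is the authors' own, with no stated unit and a lowest value of 50, and was used to rank peaks within a list. Only the headers of the H3K4ox lists name an input.

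Zones were those of the rule, and a peak belonged to a zone it overlapped by 1 bp or, for bins of 50 kb and parts of segments, by its centre. No peak of the locus fell in 2 zones. The genome density used the span between the outermost peaks of each chromosome. Gaps of the assembly were not taken out of that span, so genome densities may be too low and ratios to them too high. Background windows were tiled along the chromosomes, without those that touched the locus or its flanks and those with no peak in any list. Intervals were computed at 95%. The interval functions were tested on simulated data. Python 3.11.15, numpy 2.4.6, pandas 2.3.3, scipy 1.17.1 and matplotlib 3.10.9 were used.

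Sites were named by a rule: the 3 best-scored peaks of each antibody and segment, every place of the 3 antibodies, every H2A.Z peak, the widest peaks and the longest H3K4ox-free stretch. The other stretches, the parts of segments, the bins, windows of 180 kb and the sequence words were chosen after seeing the data. The locus and all lists were chosen with earlier results of these data known. Peaks at promoters and the list of known regulators of these promoters needed an hg19 annotation and were not run.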

Additional observations from a re-analysis of the deposited data

How the results depend on the processing

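Of 52 recomputed values for 11 results, 38 stayed within 1 SD of the lists or the 95% interval. Part of this count was fixed in advance. With 2 lists, an H3K4ox density ratio without either replicate always lies within 1 SD of their mean. Counting peaks by their centre gave the main density ratios again, since no locus peak fell in 2 zones. Those values do not measure robustness. Log2 ratios of H3K4ox in the locus against the flanks moved to -1.17 among the upper 50% of scores and to -1.09 by bases covered, and to -1.07 and -0.59 against the 5′ or 3′ flank alone, settings added after seeing the data. Against the 3′ flank alone RUVBL2 gave -0.20 and H2A.Z 2.44. By bases covered, the RUVBL2 ratio of alpha to gamma turned to 0.11, within its interval. The H3K4ox ratio of alpha to gamma moved to -1.24 in the upper 50% by score. With 200 bp intervals at the centres, H3K4ox shared regions took in 46.9% of RUVBL2 peaks and 0% of H2A.Z peaks, 12.5% of H2A.Z peaks met RUVBL2 and 63.5% of H3K4ox peaks were matched. Among the upper 50% of scores, only 3 H2A.Z peaks of the locus remained. Of these, 0% lay in shared regions and 0% met RUVBL2, and 66.2% of H3K4ox peaks were matched. The cause was not tested. Leaving out an H3K4ox replicate gave locus ratios from -0.92 to -0.79, alpha ratios from -0.95 to -0.69, beta ratios from -1.05 to -0.51, and shares of 62.5 to 78.1% for RUVBL2 and 50% for H2A.Z. H2A.Z ratios to gamma could not be computed, since gamma has no H2A.Z peak. No paired analysis was possible because H2A.Z and RUVBL2 had 1 library each, without a replicate number in their titles, and no result comes from a test. The number of peaks limits precision most for H2A.Z.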

Other observations

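H3K4ox peaks of gamma stood closest together. The median distance between neighbouring H3K4ox peaks was 2.21 and 1.53 kb in gamma for replicates 1 and 2, 5.39 and 10.6 kb in alpha, and 5.87 and 7.15 kb in beta, against 3.99 and 4.07 kb over the genome. For RUVBL2 it was 17.6 kb in alpha, 6.87 kb in beta and 8.94 kb in gamma, against 9.74 kb. Over the 52 places of the locus found in both H3K4ox lists, Spearman's correlation between the replicates' scores was 0.57, and over 20 places with RUVBL2 as well, RUVBL2 scores had 0.22 and 0.21 with those of the 2 lists. These are correlations across places of the same libraries, which are not replicates.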
